A study of Mus musculus with 16 samples.

Results

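The constitutive proteasome genes were described in left ventricular RNA from mice given a nitric oxide synthase inhibitor, a pressor peptide, or both. Members were the genes whose symbol in the platform annotation starts with Psm, a letter from a to g and a digit, apart from the immunoproteasome genes Psmb8, Psmb9 and Psmb10. The rule took 42 of the 16593 genes with a symbol on the array, from 63 of 25697 probes, and each gene was read from its probe with the highest mean over all 16 arrays. Of the 42 genes, 40 encode proteasome components, a term used here to include assembly chaperones. By symbol, 14 were placed in the core particle, 19 in the regulatory particle, 4 in the activators and 3 among the Psmg assembly chaperones. The regulatory particle class holds all components with Psmc and Psmd symbols. It therefore includes Psmd5, Psmd9 and Psmd10, which are assembly chaperones of that particle, in every summary below. The symbols of Psmc3ip and Psme3ip1 match the rule, but these genes encode no proteasome component, so they were kept as members and left out of the class summaries. The probes of Psma1 and Psma6 were at or below background on all 16 arrays and were not tested, which left 12 of 14 core genes and 38 of 40 components.

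The study used an Illumina bead array with 4 arrays in each of 4 groups of male C57BL6 mice that were 12 weeks old at assignment, and its title calls the combination a model of heart failure without ischaemia. The control group received neither agent. For 5 weeks the L-NAME group drank water that held N-nitro-L-arginine methyl ester, which inhibits nitric oxide synthases, at 0.3 mg/ml, together with 1% NaCl. The AngII group received angiotensin II, a vasoconstrictor peptide hormone, at 0.7 mg/kg/day from a pump under the skin for 4 weeks. The combination group received both, with the same doses and durations. All 4 groups share strain, sex and tissue, and the labels name no genetic change. The labels give salt in the water with L-NAME and say nothing of salt in the control and AngII groups, nor of empty pumps in the control and L-NAME groups, so the agent and its delivery cannot be told apart. They number the samples of a group without saying that each came from its own mouse, and the p-values therefore measure the spread between these samples.

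All values are deposited log2 signals, and the median signal of each array was 6.90. A signal was called above background at 7.13, the 95th percentile of 1360 probes for chemosensory receptor genes, and 9110 genes had a probe above it on at least 4 arrays. Ventricular cardiomyocyte markers were high on every array, with a mean over 5 genes between 12.81 and 13.14. Atrial markers, over 3 genes, averaged 9.78 on control array 4 and between 7.81 and 10.55 in the combination group, against 6.94 to 7.73 on the L-NAME and AngII arrays. Smooth muscle markers, over 4 genes, averaged 8.38 to 8.59 in control, 8.67 to 9.15 with L-NAME, 8.70 to 9.14 with AngII and 8.35 to 9.20 with the combination. Fibroblast markers, over 6 genes, averaged 10.41 to 10.62 in control, 10.51 to 10.78 with L-NAME, 10.69 to 10.91 with AngII and 10.07 to 11.65 with the combination. Combination array 4 stood apart, with the lowest leukocyte mean of all arrays, 8.24 over 7 genes, and the highest erythroid mean, 14.10 over 2 genes. The tissue was measured in bulk, so fewer cells of a type and less RNA per cell cannot be told apart.

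The proteasome degrades proteins that carry ubiquitin chains. Its barrel-shaped core particle has outer rings of alpha subunits, which form the gate, around inner rings of beta subunits, some of which carry the proteolytic sites. The regulatory particle caps the core, binds ubiquitin chains, removes them and uses a ring of ATPases to unfold the substrate and thread it into the core. Alternative caps, the activators, open the gate without ATP, and dedicated chaperones assemble the rings. Cardiomyocytes rely on this machinery to turn over sarcomere proteins, and in mammalian cells the factors Nfe2l1 and Nfe2l2 bind antioxidant response elements and can raise transcription of proteasome genes.

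None of the 38 tested proteasome components passed the test between any treated group and control. In limma with Benjamini-Hochberg adjustment over all 9110 genes, at an adjusted p under 0.05, 0 components were called for AngII against control, where 0% of all genes were called, and 0 for L-NAME against control, where the background was also 0%. In the combination against control 0 of 38 components were called, against 5.80% of all genes. At an unadjusted p under 0.05 the counts were 7 of 38 components for AngII, or 18.4% against 14.4% of all genes, 5 for L-NAME, or 13.2% against 11.4%, and 12 for the combination, or 31.6% against 21.4%. Of those 12 components 5 had a higher and 7 a lower mean in the combination group. The components were brighter than all genes tested, with a median level of 12.60 against 9.29. Their median SD within groups was 0.16 against 0.26, so these shares compare genes of unlike spread. The 3 comparisons share the same 4 control arrays, so their values are given side by side and are not separate evidence for one another.

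A fit that also held the replicate numbers as a block called 1 component in AngII against control, with 0.615% of all genes, 0 in L-NAME against control, with 0%, and 6 in the combination against control, with 8.65%. These 6 were 15.8% of the 38 components. Arrays numbered 1 and 2 stood apart from arrays numbered 3 and 4, a division seen in these same values and named by no label. A fit with this set as a term in place of the numbers called 8 components in the combination against control, or 21.1%, with 9.17% of all genes. These 8 were Psmb3, Psmb7, Psmc4, Psmd11, Psme1, Psme4, Psmg1 and Psmg3. Block values stand beside the genes below.

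**Figure D1:**
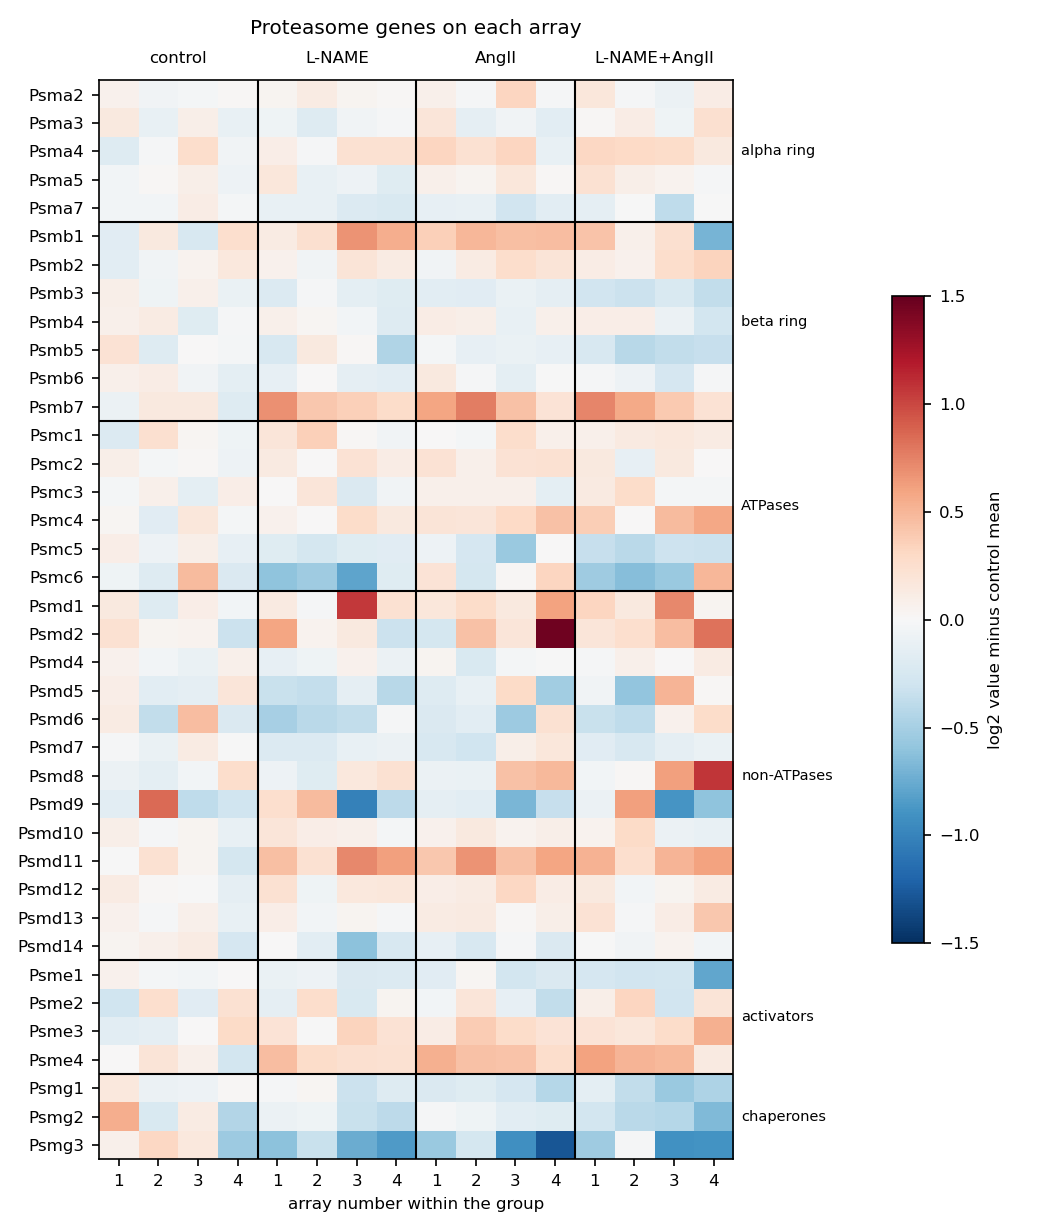
Each row is a proteasome component by class and each column is 1 of the 16 arrays; colour gives the log2 signal minus the gene's mean over the 4 control arrays, on a scale from -1.5 to 1.5. Most cells are near white, while Psmb7, Psmd11 and Psme4 are red on most treated arrays and Psmg3 is blue on most of them. Single arrays stand out for other genes, such as Psmd2 in red on AngII array 4.

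The class medians were close to 0. The median log2 difference from control of the 12 core genes was 0.06 for AngII, -0.04 for L-NAME and 0.03 for the combination. For the 19 regulatory particle genes it was 0.08, 0.02 and 0.05 in the same order, and over all 9110 genes it was 0.01, 0.01 and -0.005. Components differed from control in both directions: 21 of 38 were higher and 17 lower on average with AngII, 17 higher and 21 lower with L-NAME, and 22 higher and 16 lower with the combination. The median size of the difference, without its sign, was 0.15, 0.13 and 0.19 for the components and 0.17, 0.15 and 0.20 for all genes.

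Averaged over the 12 core genes, the signal was between 13.07 and 13.13 on the control arrays, 13.08 and 13.17 on the L-NAME arrays, 13.12 and 13.23 on the AngII arrays and 13.04 and 13.22 on the combination arrays. Over the 19 regulatory particle genes the ranges were 11.11 to 11.24 in control, 11.15 to 11.21 with L-NAME, 11.21 to 11.39 with AngII and 11.17 to 11.38 with the combination. All 4 groups overlapped for the regulatory particle, and for the core each treated group overlapped control. Within the core, the mean of the 5 alpha genes was 13.58 to 13.74 in control and overlapped it in each treated group. The mean of the 7 beta genes was 12.69 to 12.75 in control, 12.71 to 12.85 with L-NAME, 12.82 to 12.89 with AngII and 12.56 to 12.84 with the combination, so that the AngII arrays lay wholly above control. The beta genes did not move together with AngII: 4 were higher and 3 lower on average, with a median difference of 0.04. The largest differences were those of Psmb7 at 0.50 and Psmb1 at 0.44.

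**Figure D2:**
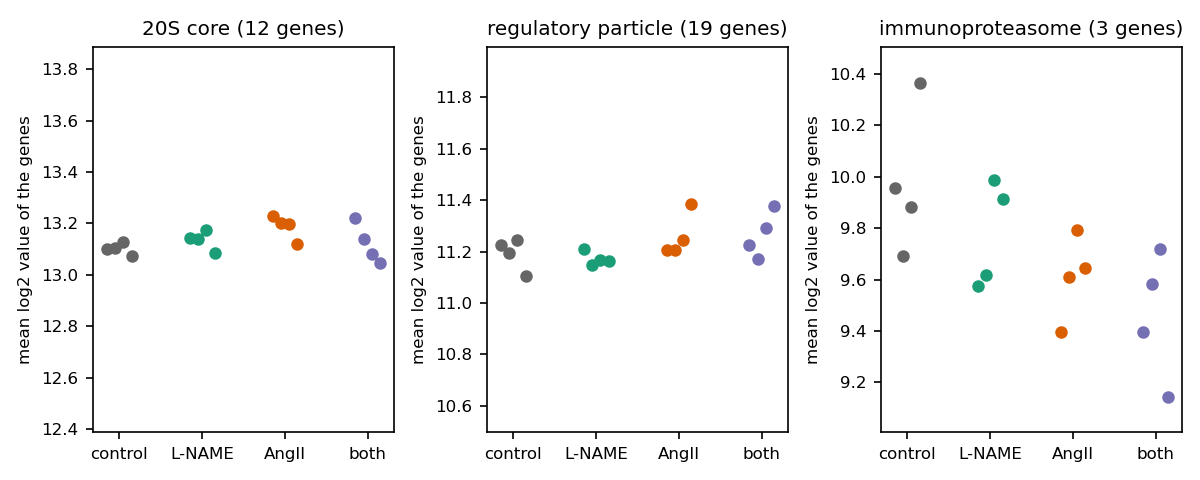
Points are the mean log2 signal of a set of genes on each array, by treatment group, for the core particle, the regulatory particle and the immunoproteasome; "both" is the combination group. The core means lie between 13.04 and 13.23 and the regulatory particle means between 11.11 and 11.39, with overlapping groups.

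The 95% intervals show how large a difference the arrays could have hidden. In the combination against control the interval lay within 2-fold of no difference, that is within 1 on the log2 scale, for 35 of 38 components, and within 1.5-fold for 23. For AngII the counts were 35 and 28, and for L-NAME 36 and 27. The median half-width of the interval was 0.26 for the components and 0.38 for all genes. Every tested core gene lay within 2-fold in all 3 comparisons with control. The intervals that reached past 2-fold belonged to Psmd2, Psmd9 and Psmg3 with AngII and with the combination, and to Psmc6 and Psmg3 with L-NAME.

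**Figure D3:**
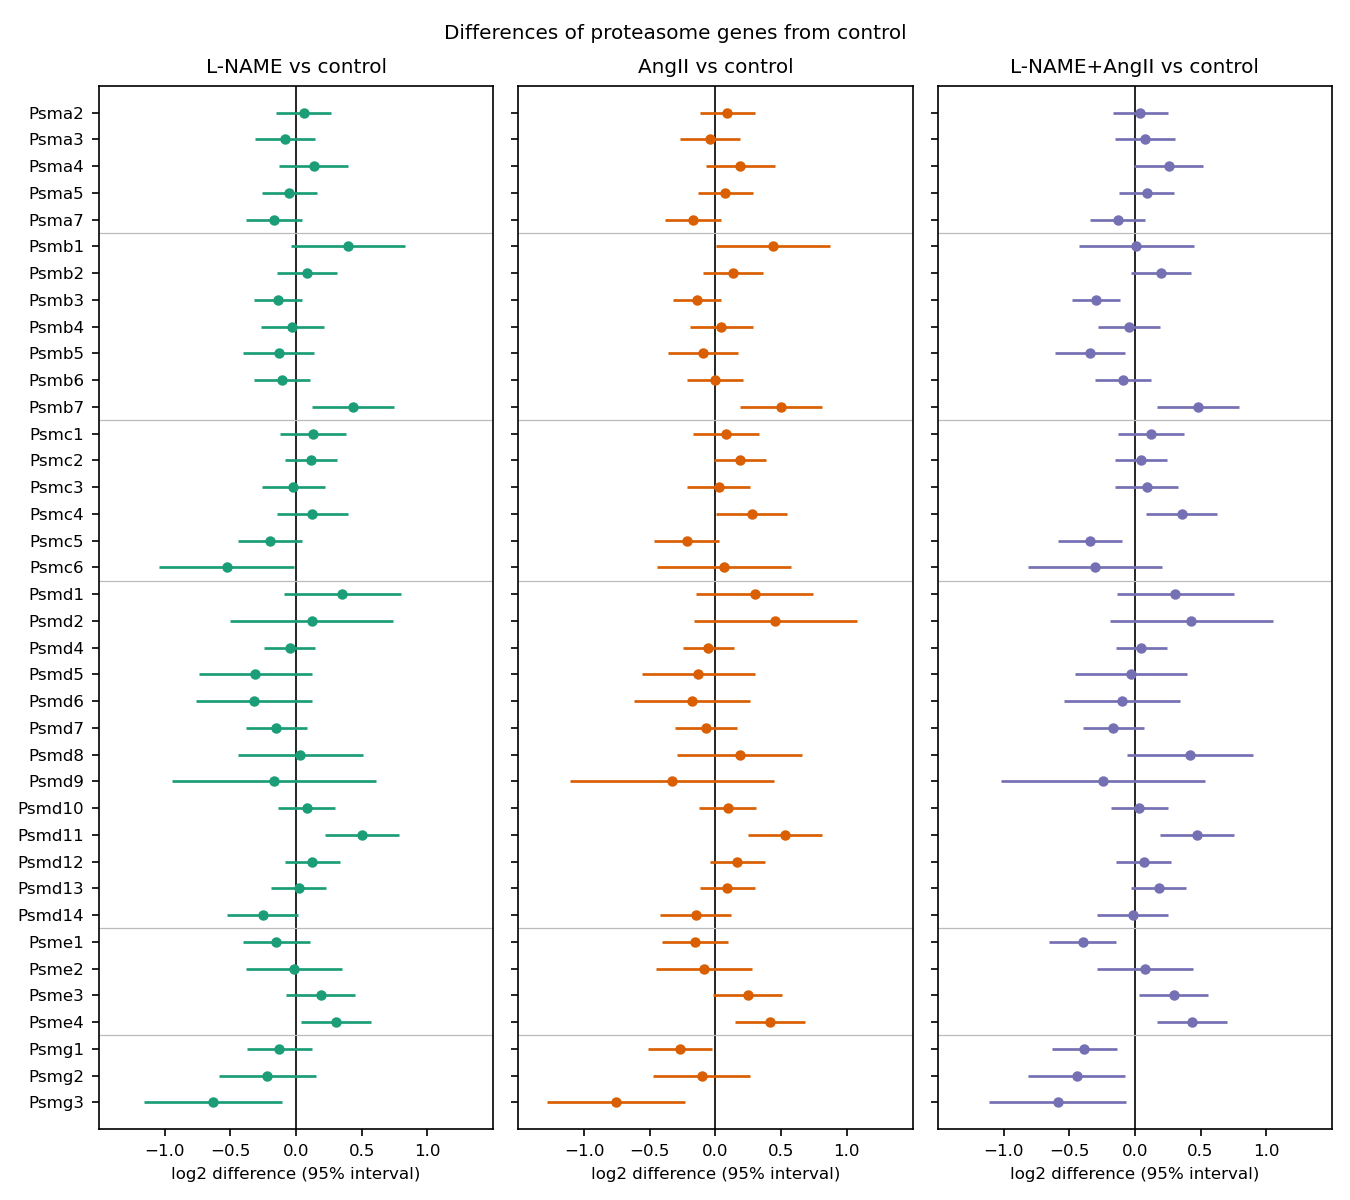
Points are log2 differences from control of the 38 tested components in each treated group, with 95% intervals from the fit over all genes, ordered by class. In the combination panel, Psmd11 and Psmb7 at 0.47 and 0.48 and Psmg3 at -0.59 have the differences farthest from 0.

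Promoter sequence is shown for 3 of the members whose values are described below, because Nfe2l1 and Nfe2l2 act on proteasome genes through antioxidant response elements. Sequences are those of RefSeq on build GRCm38.p6, 250 bases before to 50 after the annotated start, 5′ to 3′ on the gene's strand, and capitals mark the element's core TGACNNNGC read on either strand. The windows are Psme4 at chr11:30771525-30771824 on the plus strand, Psmb5 at chr14:54617946-54618245 on the minus strand and Psmd11 at chr11:80428365-80428664 on the plus strand.
Psme4: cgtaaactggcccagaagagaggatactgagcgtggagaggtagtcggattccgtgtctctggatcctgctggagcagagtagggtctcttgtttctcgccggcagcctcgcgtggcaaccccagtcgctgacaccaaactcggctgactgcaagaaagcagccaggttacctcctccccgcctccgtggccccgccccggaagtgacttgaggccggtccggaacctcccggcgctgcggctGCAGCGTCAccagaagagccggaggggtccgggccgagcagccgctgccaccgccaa
Psmb5: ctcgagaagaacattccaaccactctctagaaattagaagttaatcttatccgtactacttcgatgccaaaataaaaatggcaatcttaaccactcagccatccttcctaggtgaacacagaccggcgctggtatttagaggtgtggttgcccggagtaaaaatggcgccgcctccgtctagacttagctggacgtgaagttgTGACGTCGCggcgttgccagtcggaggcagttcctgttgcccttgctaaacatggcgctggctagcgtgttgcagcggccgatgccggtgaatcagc
Psmd11: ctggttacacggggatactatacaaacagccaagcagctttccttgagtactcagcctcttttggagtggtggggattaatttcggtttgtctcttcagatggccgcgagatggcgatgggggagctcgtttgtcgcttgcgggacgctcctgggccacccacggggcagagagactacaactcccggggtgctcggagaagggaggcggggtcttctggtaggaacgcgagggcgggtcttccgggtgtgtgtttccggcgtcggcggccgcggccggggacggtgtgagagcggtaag

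In Psme4 the core is read on the strand opposite to the printed sequence, and the match as printed begins at -7 from the start. In Psmb5 the core is read on the printed strand and begins at -47, and the Psmd11 window holds no match. The other components with a match were Psmb6, Psmc6, Psmd9 and Psmd12. In all, 6 of the 34 components with a window held the core, or 17.6%, against 3781 of 27025 genes with a window, or 14.0%. The 6 genes with a match had a median log2 difference of -0.17 in the combination against control, between -0.34 and 0.43, and the 26 tested genes with a window and no match a median of 0.05, between -0.59 and 0.47. The ranges overlapped. A match of these letters is a description of the window and does not locate a bound factor.

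In the alpha ring, which gates the core, all 5 tested genes stayed within 0.26 of control on the log2 scale in every treated group. Their 95% intervals all lay within 1.5-fold of control. The brightest probe of the class was that of Psma2, with group means of 14.01 ± 0.05 in control, 14.07 ± 0.04 with L-NAME, 14.11 ± 0.16 with AngII and 14.06 ± 0.12 with the combination (SD, n = 4). Psma4 had the largest difference with AngII and with the combination, at 0.19 and 0.26, and its arrays overlapped with control in both.

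Psma7 read 13.05, 13.05, 13.20 and 13.06 on the control arrays, 12.98, 12.97, 12.88 and 12.86 on the L-NAME arrays, 12.97, 12.98, 12.80 and 12.93 on the AngII arrays and 12.95, 13.08, 12.70 and 13.09 on the combination arrays. Every L-NAME and AngII array was below every control array, while the combination overlapped control. The differences were -0.17, -0.17 and -0.13, none of which passed the test, and a second Psma7 probe gave -0.09, -0.03 and 0.04. The other tested alpha genes, Psma3 and Psma5, differed from control by between -0.08 and 0.09.

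Among the beta subunits, 2 of the 3 genes for catalytic sites had differences of opposite sign in the combination. Psmb7, the trypsin-like site, read 13.03, 13.27, 13.27 and 12.93 in control, 13.81, 13.53, 13.48 and 13.40 with L-NAME, 13.72, 13.89, 13.56 and 13.33 with AngII, and 13.86, 13.69, 13.52 and 13.34 with the combination. All 12 treated arrays were above all 4 control arrays. The differences were 0.43 for L-NAME (95% interval 0.12 to 0.75, adjusted p = 0.292), 0.50 for AngII (0.19 to 0.81, adjusted p = 0.149) and 0.48 for the combination (0.17 to 0.79, adjusted p = 0.0688). With the replicate block the combination passed, with an adjusted p of 0.0223. The probes of the gene disagreed: a second probe gave 0.45, 0.40 and 0.40, and another gave -0.01, -0.14 and -0.27. The smooth muscle means given above were higher than control on all L-NAME and AngII arrays, as Psmb7 was. Of these markers Cnn1 was above background on 0 arrays and Tagln on 3, and Acta2 was higher in the combination by 0.88 (adjusted p = 0.00442). Myh11 overlapped control, at 9.26, 9.76, 9.24 and 7.42 in the combination against 8.95, 8.63, 8.26 and 8.15. The part of these markers in the values of Psmb7, and of Psmd11 and Psme4 below, was not tested.

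Psmb5, the chymotrypsin-like site, read 11.30, 10.89, 11.08 and 11.05 in control and 10.83, 10.67, 10.71 and 10.74 in the combination group. The combination arrays lay below every control array, by a mean of 0.34 (95% interval of the difference -0.61 to -0.08, adjusted p = 0.121 in limma). On the L-NAME arrays it read 10.84, 11.22, 11.10 and 10.62, and on the AngII arrays 11.05, 10.96, 10.98 and 10.95, both overlapping control. Psmb6, the caspase-like site, had a group mean of 12.87 ± 0.12 in control and 12.77 ± 0.08, 12.87 ± 0.12 and 12.78 ± 0.11 with L-NAME, AngII and the combination (SD, n = 4), and the groups overlapped.

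Of the beta subunits without a catalytic site, Psmb3 read 13.24, 13.08, 13.22 and 13.05 in control and 12.86, 12.83, 12.92 and 12.78 in the combination group. The combination arrays were also below every L-NAME array, at 12.94, 13.13, 13.00 and 12.96, and every AngII array, at 12.99, 12.98, 13.05 and 13.01. The difference of the combination from control was -0.30 (95% interval -0.48 to -0.12, adjusted p = 0.0547), a 1.23-fold lower signal that did not pass the test. With the replicate block the adjusted p was 0.0514, and with the set of arrays as a term it passed at 0.0435. From AngII it was -0.16 and from L-NAME also -0.16.

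Psmb1, another structural subunit, read 11.60, 11.92, 11.53 and 12.02 in control, 11.89, 12.004, 12.44 and 12.31 with L-NAME and 12.12, 12.26, 12.21 and 12.22 with AngII. The AngII arrays were above every control array, with a difference of 0.44 (95% interval 0.0028 to 0.87, adjusted p = 0.342). The combination arrays read 12.19, 11.84, 12.01 and 11.06, with a mean 0.01 above control, and array 4 was the lowest of all 16. On the probes used, Psmb2 and Psmb4 differed from control by between -0.04 and 0.20 in the 3 groups. The brightest probe of the beta ring was that of Psmb4. Its mean was 13.92 in control, 13.89 with L-NAME, 13.97 with AngII and 13.88 with the combination.

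The 6 ATPases of the regulatory particle, which unfold the substrate, had a median difference of 0.07 with AngII, 0.05 with L-NAME and 0.07 with the combination. Psmc4 read 12.62, 12.42, 12.77 and 12.56 in control, 12.78, 12.77, 12.89 and 13.03 with AngII and 12.96, 12.59, 13.06 and 13.17 with the combination. The AngII arrays lay above every control array, and 3 of the 4 combination arrays did. The difference was 0.27 for AngII (adjusted p = 0.338) and 0.36 for the combination (95% interval 0.08 to 0.63, adjusted p = 0.114), and with the replicate block the combination passed at an adjusted p of 0.0456. On the L-NAME arrays Psmc4 read 12.66, 12.60, 12.87 and 12.74, which overlapped control.

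Psmc5 read 13.08, 12.91, 13.07 and 12.86 in control, 12.80, 12.72, 12.80 and 12.81 with L-NAME and 12.64, 12.58, 12.67 and 12.66 with the combination. Both treated groups lay wholly below control, and the combination wholly below L-NAME. On the AngII arrays Psmc5 read 12.91, 12.73, 12.42 and 12.99, which overlapped control. The combination differed from control by -0.34 (95% interval -0.59 to -0.10, adjusted p = 0.0942). A second Psmc5 probe differed by 0.20 with L-NAME, 0.09 with AngII and 0.01 with the combination, so the 2 probes of this gene disagreed.

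Psmc6 had the dimmest probe of the class, at 8.25, 8.12, 8.79 and 8.10 in control and 7.71, 7.78, 7.52 and 8.14 with L-NAME, with overlap at the last array. Its difference with L-NAME was -0.53 (95% interval -1.04 to -0.02, adjusted p = 0.423), the widest of the class. Psmc1, Psmc2 and Psmc3 differed from control by between -0.02 and 0.19 in the 3 groups. The brightest probe of the class was that of Psmc2. Its mean was 13.83 in control, 13.95 with L-NAME, 14.02 with AngII and 13.88 with the combination.

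Among the 13 genes with Psmd symbols, which encode the scaffold, ubiquitin-binding and deubiquitinating subunits and 3 assembly chaperones of the regulatory particle, Psmd11 had the largest difference in every treated group. Psmd11 encodes a lid scaffold subunit that also contacts the core. It read 10.48, 10.71, 10.52 and 10.22 in control, 10.93, 10.71, 11.20 and 11.09 with L-NAME, 10.89, 11.15, 10.92 and 11.08 with AngII and 11.01, 10.73, 10.996 and 11.08 with the combination. AngII and combination arrays were all above control, and L-NAME array 2 was level with control array 2.

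The Psmd11 difference was 0.50 for L-NAME (95% interval 0.22 to 0.78, adjusted p = 0.259), 0.53 for AngII (0.24 to 0.81, adjusted p = 0.111) and 0.47 for the combination (0.19 to 0.75, adjusted p = 0.0503). With the replicate block the adjusted p of the combination was 0.0582, and with the set of arrays as a term it passed at 0.0395. A second Psmd11 probe gave 0.24, -0.06 and 0.34 in the same order, so the probes disagreed for AngII.

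The deubiquitinase Psmd14 had group means of 11.20 ± 0.17 in control, 10.94 ± 0.26 with L-NAME, 11.04 ± 0.10 with AngII and 11.18 ± 0.05 with the combination (SD, n = 4), and every treated group overlapped control. The ubiquitin receptor Psmd4 stayed between 13.65 and 13.99 on all 16 arrays. Psmd7, the partner of the deubiquitinase, read 13.16, 13.08, 13.29 and 13.17 in control and 13.00, 12.93, 13.03 and 13.07 with the combination, with every combination array below control and a difference of -0.17. Psmd8, a lid subunit, read 12.22, 12.27, 12.87 and 13.33 with the combination against 12.17, 12.11, 12.22 and 12.52 in control, with arrays 3 and 4 the highest.

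Psmd1, a base scaffold subunit, lay above every control array with AngII, at 9.12, 9.22, 9.10 and 9.56 against 9.09, 8.76, 9.05 and 8.91. The assembly chaperones Psmd5, Psmd9 and Psmd10 differed from control by between -0.33 and 0.09 on the probes used. Psmd9 had the widest interval, from -1.11 to 0.44 with AngII, and its control arrays alone ranged from 7.81 to 9.04. Psmd2, the other base scaffold subunit, had the dimmest probe of the class, and its AngII mean of 7.97 ± 0.73 (SD, n = 4) rested on array 4 at 8.98. On the probes used, the remaining lid subunits Psmd6, Psmd12 and Psmd13 differed from control by between -0.32 and 0.18. A second Psmd6 probe gave -0.40, -0.32 and -0.41 with L-NAME, AngII and the combination. A second Psmd12 probe gave -0.30, -0.14 and -0.15 in the same order, while the probe used gave 0.12, 0.16 and 0.07, so these probes disagreed.

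**Figure D4:**
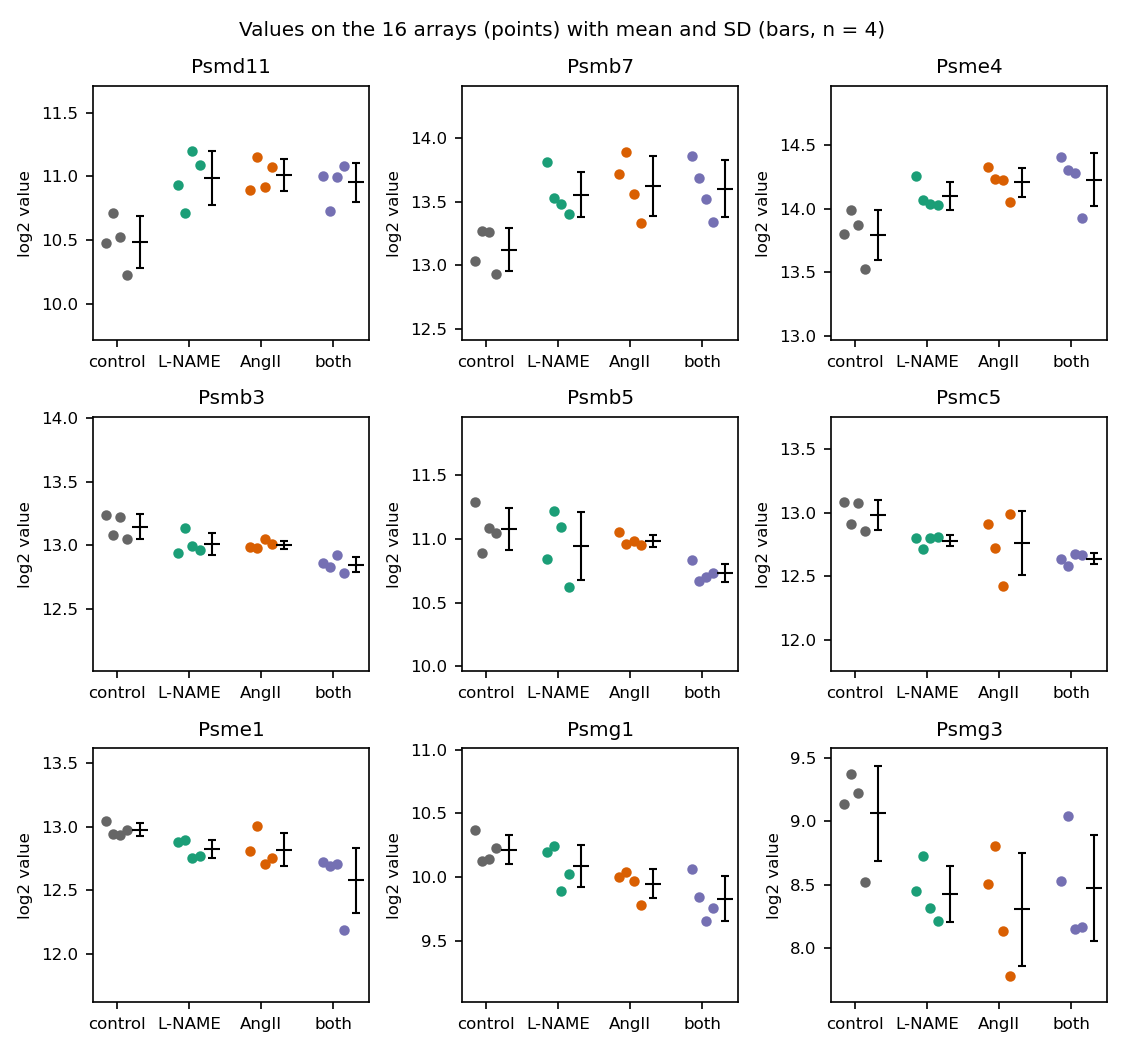
Points are log2 signals on each array by treatment group for 9 single members, with the group mean and SD beside them (n = 4); "both" is the combination group. Psmd11, Psmb7 and Psme4 have treated means above control in all 3 groups, and the other genes shown have treated means below it. Combination array 4 lies below the rest of its group for Psme1 at 12.19.

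Among the activators, Psme4 and Psme1 had differences of opposite sign. Psme4, which encodes the large activator PA200, read 13.80, 13.99, 13.87 and 13.52 in control, 14.26, 14.07, 14.04 and 14.03 with L-NAME, 14.33, 14.23, 14.22 and 14.05 with AngII and 14.40, 14.30, 14.28 and 13.93 with the combination. L-NAME and AngII arrays were all above control, and combination array 4 fell within the control range. The difference was 0.30 (adjusted p = 0.361), 0.41 (adjusted p = 0.160) and 0.43 (95% interval 0.17 to 0.70, adjusted p = 0.0557), and with the replicate block the combination passed at an adjusted p of 0.0186. A second Psme4 probe gave 0.31, 0.41 and 0.53.

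Psme1, a subunit of the interferon-inducible activator, read 13.05, 12.94, 12.94 and 12.98 in control, 12.88, 12.90, 12.76 and 12.77 with L-NAME, 12.81, 13.01, 12.71 and 12.76 with AngII and 12.72, 12.69, 12.70 and 12.19 with the combination. The combination and L-NAME arrays were all below control. The combination differed by -0.40 (95% interval -0.65 to -0.14, adjusted p = 0.0633), and by an adjusted p of 0.0444 with the replicate block. Without combination array 4 the difference was -0.27 with an adjusted p of 0.0965. A second Psme1 probe differed by -0.03 with L-NAME, -0.02 with AngII and -0.28 with the combination.

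The mean of the 7 leukocyte markers was 9.85 to 9.99 in control, 9.18 to 9.75 with L-NAME, 9.04 to 9.82 with AngII and 8.24 to 9.97 with the combination, so the combination overlapped control. Of the 7, Ptprc was above background on 1 array and Cd3e on 0, and none of the 5 tested was called in the combination. The mean of H2-Aa was 11.59 in control and 10.48 in the combination, that of H2-Ab1 10.96 and 9.65, that of Cd74 11.38 and 10.31 and that of Adgre1 10.43 and 9.94, while Lyz2 was at 12.57 and 12.64. Their part in the result was not tested. Psme2, the partner subunit of Psme1, had means of 10.16 ± 0.28 in control, 10.15 ± 0.21, 10.07 ± 0.23 and 10.24 ± 0.26 (SD, n = 4), with overlap throughout. Psme3, a nuclear activator, differed by 0.30 in the combination (95% interval 0.03 to 0.56, adjusted p = 0.176).

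The 3 Psmg genes, whose products help to assemble the alpha ring, had means below control in every treated group on the probes used. Psmg3 had the largest difference of all components with AngII, and read 9.14, 9.37, 9.22 and 8.52 in control, 8.45, 8.73, 8.32 and 8.22 with L-NAME, 8.50, 8.80, 8.14 and 7.78 with AngII and 8.53, 9.04, 8.15 and 8.16 with the combination. Control array 4 fell within the range of each treated group. The differences were -0.63 (adjusted p = 0.339), -0.76 (95% interval -1.28 to -0.23, adjusted p = 0.174) and -0.59 (adjusted p = 0.176). With the replicate block AngII passed at an adjusted p of 0.0429 and the combination at 0.0179.

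Psmg1 read 10.37, 10.12, 10.14 and 10.23 in control, 10.00, 10.04, 9.97 and 9.78 with AngII and 10.07, 9.84, 9.66 and 9.76 with the combination. Both lay wholly below control, by means of 0.27 and 0.39. The combination difference had an adjusted p of 0.0635, and 0.0308 with the replicate block. Psmg2, which pairs with Psmg1, differed by -0.22, -0.11 and -0.44 with L-NAME, AngII and the combination, the last with an adjusted p of 0.147. A second Psmg2 probe differed by 0.02, 0.02 and -0.25.

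The 2 genes that match the symbol rule without being components also had no call. Psmc3ip differed from control by -0.35, -0.31 and -0.61 with L-NAME, AngII and the combination, and Psme3ip1 by -0.25, -0.09 and -0.30.

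Counted by arrays alone, 8 of 38 components had no overlap between AngII and control, or 21.1% against 11.4% of all genes, 5 between L-NAME and control, or 13.2% against 10.1%, and 8 between the combination and control, or 21.1% against 12.6%. As given above, the components varied less within groups than all genes. In the combination, Psmb7 and Psmd11 were higher and Psmb3, Psmb5, Psmc5, Psmd7, Psme1 and Psmg1 lower. With AngII, Psmb1, Psmb7, Psmc4, Psmd1, Psmd11 and Psme4 were higher and Psma7 and Psmg1 lower. With L-NAME, Psmb7 and Psme4 were higher and Psma7, Psmc5 and Psme1 lower.

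The combination was also set against each agent alone. Against AngII, 0 of 38 components were called in limma, with 0.735% of all genes, 0 had an unadjusted p under 0.05, with 15.5% of all genes, and 3 did not overlap, or 7.89% against 7.73%. These 3, Psmb3, Psmb5 and Psmg2, were lower in the combination. Against L-NAME, 0 were called, with 1.89% of all genes, 1 had an unadjusted p under 0.05 (Psmg1 at -0.26), with 16.7% of all genes, and 3 did not overlap, or 7.89% against 10.3%. With the replicate block no component was called in either comparison, where 1.89% and 2.88% of all genes were. All 38 intervals lay within 2-fold in both comparisons.

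The interaction asks whether the combination differs from the sum of the single-agent differences. No component was called in limma, nor was any gene (0%), and 5 of 38 had an unadjusted p under 0.05, or 13.2% against 16.4% of all genes. With the block 0 components and 0.461% of all genes were called. Psmb1 had the largest value, -0.82 (95% interval -1.44 to -0.21, adjusted p = 0.185), where each agent alone gave 0.39 and 0.44 and both gave 0.01. Among the other components with an unadjusted p under 0.05, Psmg3 was at 0.80 (0.06 to 1.54, adjusted p = 0.266), Psmd11 at -0.56 (-0.96 to -0.16, adjusted p = 0.168), Psmb7 at -0.45 and Psmd14 at 0.39. For Psmd11, Psmb7 and Psmg3 the combination was about as far from control as each agent alone.

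Arrays numbered 1 and 2 stood apart from those numbered 3 and 4 across the 4 groups, with a median correlation of -0.26 between the sets in the deviations from group means over all genes. Such deviations balance out within a group, so part of this negative value follows from positive correlation within the sets. The labels name no batch. Taken within each set, with 2 arrays a group and no test, the combination was set against control. Psmd11 was 0.27 and 0.67 above control in the 2 sets, Psmb7 0.63 and 0.33, Psme4 0.46 and 0.41, and Psmb3 differed by -0.31 and -0.28. For Psmd11, Psmb7 and Psmb3 the combination arrays did not overlap control, so the sign within each set was fixed beforehand and only the size could vary. Some other components changed sign between the sets, among them Psmb1 at 0.26 and -0.24 and Psmd5 at -0.30 and 0.24.

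Genes that work with the constitutive proteasome were read from lists chosen with earlier results of these data known. Of the 3 immunoproteasome genes, whose products replace the catalytic subunits after interferon, 1 fell in the combination, where 5.80% of all genes were called. Psmb9 read 10.14, 10.14, 10.27 and 10.44 in control and 9.32, 9.52, 9.09 and 8.25 with the combination, a difference of -1.20 (95% interval -1.64 to -0.77, adjusted p = 0.00432), with combination array 4 again the lowest. Psmb9 was also below every control array with L-NAME, at 9.99, 9.75, 9.87 and 9.75, and with AngII, at 9.38, 9.65, 9.77 and 9.57. In limma neither difference was called. In the combination Psmb8 differed by -0.36 and Psmb10 by 0.03. The part of the leukocyte markers, given beside Psme1, in the value of Psmb9 was not tested.

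Of the 6 tested components and assembly factors under other symbols, 0 were called in the 3 comparisons with control, and Sem1, a small lid subunit, was the only 1 with an unadjusted p under 0.05, against the same shares of all genes as given for the components, at -0.29 with AngII, -0.24 with L-NAME and -0.26 with the combination (adjusted p = 0.0847). Of the 6 tested shuttle and extraction factors, 0 were called in limma, with an unadjusted p under 0.05 for 2 with AngII, 1 with L-NAME and 1 with the combination, against 14.4%, 11.4% and 21.4% of all genes. Rad23b, which carries ubiquitinated proteins to the proteasome, differed by 0.38, 0.36 and 0.32 in the same order, with an adjusted p of 0.0879 in the combination. Of 6 tested regulators of proteasome gene transcription 0 were called in limma, and 1, Mafg, had an unadjusted p under 0.05 in the combination, against 21.4% of all genes, with a difference of -0.30. Nfe2l1 stayed between 12.91 and 13.57 on all arrays. Nfe2l2 differed by -0.43 in the combination, where array 4 read 7.12 and the other 3 between 8.91 and 9.29.

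Of the 7 tested muscle ubiquitin ligases, 1 fell in the combination, where 5.80% of all genes were called: Mdm2, the ligase of p53, read 11.78, 11.92, 11.99 and 11.99 in control and 11.32, 11.56, 11.59 and 11.47 with the combination (difference -0.43, adjusted p = 0.0157). Mdm2 was also below every control array with L-NAME, at 11.49, 11.66, 11.56 and 11.67, and with AngII, at 11.59, 11.56, 11.70 and 11.66. In limma neither of these was called. Fbxo30 had the largest difference of the list, -1.20 (adjusted p = 0.146), at 10.54, 10.45, 10.44 and 7.65 with the combination against 10.87, 10.95, 10.83 and 11.24 in control, without overlap. At an unadjusted p under 0.05, Mdm2 and Fbxo30 were the 2 ligases of 7 that were lower, against 21.4% of all genes. The atrophy ligases Trim63 and Fbxo32 were not called. Of the ubiquitin and ubiquitin-activating genes, Uba6 was at or below background on all 16 arrays and was not tested, and the others were not analysed here.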

How the data were processed

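Biotin-labelled cRNA from total RNA of 16 left ventricular samples was hybridised to Illumina bead arrays, 4 in each group. The values used are log2 signals deposited by the authors, with near-identical distributions on every array, and per the submitters' processing notes GenomeStudio and lumi were used, with versions, background correction and normalization method not given in the sources used here. Another deposited table held 64 columns whose names match no sample label and was not used. Of 25697 probes, 23978 carried 1 gene symbol and 1719 none.

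Each gene was read from its probe with the highest mean. A gene was tested where its probe exceeded 7.13, the 95th percentile of 1360 chemosensory receptor probes, on at least 4 arrays, which left 9110 genes. 1 fit of 4 group means over 16 arrays was made with limma 3.58.1 in R 4.3.3, moderated by empirical Bayes, with Benjamini-Hochberg adjustment over all 9110 genes and a threshold of 0.05. It was tested on simulated data. Errors are SD over 4 arrays or 95% intervals from this fit, and the number of arrays limits the precision. Intervals are not adjusted for the number of genes.

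Members, gene lists, tests and alternatives were chosen with earlier results of these data known. Named with values were members called in any comparison and, in each class, those with the highest and lowest level and the largest differences from control; further members with no overlap between groups were named after their values were seen. Replicate numbers come from the labels. In all 24 pairs of same-numbered samples the deviations from the group means correlated, with r between 0.11 and 0.45 and a median of 0.28, so a fit with the number as a block is given beside results it changes. Samples with another number of the same set, 1 and 2 or 3 and 4, had a median r of 0.23, so the number may stand in part for the set. Alternatives were the filter on dim probes, variance settings, array weights, the block, the set, an atrial covariate, other scalings and leaving out each array. All 42 members matched the RefSeq gene table, and promoter windows came from RefSeq on GRCm38.p6.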

Additional observations from a re-analysis of the deposited data

Results flagged for a closer look

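Of 152 groups of 4 arrays over the 38 tested components, 8 held an array whose gap to its nearest neighbour passed Dixon's limit, and chance marks about 1 in 20 groups. Psma7 read 13.20 on control array 3, above the rest of its group. With AngII, Psmb4 read 13.82 and Psmd12 read 12.94 on array 3, Psmc2 read 13.92 on array 2 and Psmc3 read 12.32 on array 4. Psmc5 read 12.72 on L-NAME array 2. On combination array 4, Psmc6 read 8.82, above the other 3 arrays of the group, and Psme1 read 12.19, below them. That array also had the lowest leukocyte mean, 8.24, and the highest erythroid mean, 14.10, and their part in these values was not tested.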

How the results depend on the processing

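The 6 counts of called components depended on the processing in 2 comparisons. For the combination against control, with 0 called as reported, 1 component was called with no filter on dim probes, 6 with probes above background on all 16 arrays, 7 with a trended robust variance, 7 with array weights, 8 with the set of arrays as a term and 2 with cyclic loess. The replicate block called 6 for the combination and 1 for AngII, and changed no other count of components. For AngII, also 0 as reported, a trended robust variance called 3 and array weights 1. Leaving out 1 array at a time called 0 to 2 components for the combination and 0 for the other 5 comparisons. Psmd11 was called without control array 2, without L-NAME array 2 and, with Psmc4, without combination array 2. Psmc5 was called without AngII array 3, Psmg1 without combination array 1, and Psmb7 and Psme4 without combination array 4. Fits on arrays 1 and 2 or arrays 3 and 4 of each group, an alternative chosen after seeing the data, called 0. As 0 components were called as reported, no called value could change direction. The count over all genes in the combination was 528 as reported, 788 with the block, 835 with the set, 1113 with array weights, 82 in a fit of only the arrays compared, 288 on arrays 1 and 2, 0 on arrays 3 and 4 and 248 to 581 with 1 array left out. Over the alternatives the median difference of core and regulatory particle genes ran from 0.03 to 0.07 for the combination and 0.02 to 0.09 for AngII against control. It changed sign for L-NAME against control, from -0.03 to 0.02, for the combination against AngII, from -0.04 to 0.03, and for the interaction, from -0.04 to 0.03, and ran from 0.006 to 0.10 for the combination against L-NAME. The numbers of arrays limit what could be called, and the cause of each change was not tested.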
